A study of Homo sapiens with 18 samples.

Results

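The well-expressed long noncoding RNA (lncRNA) genes of PEO1 ovarian cancer cells are described here, 331 rows out of the 57736 rows of a gene-level count table. They were selected on their own level. A row was taken when its Ensembl transcripts belonged, in the GENCODE v29 annotation, to 1 gene of a long noncoding type, and when its mean CPM over the 18 libraries was at least 5 (CPM is the raw count scaled to a library total of 1000000). The levels are therefore given below as a description. The 331 rows stood for 327 genes, of which 124 rows were typed lincRNA, 115 antisense, 48 processed transcript, 26 sense intronic, 14 sense overlapping and 4 bidirectional promoter lncRNA. The member just inside the minimum was MAGI2-AS3 at a mean of 5.01 CPM, and the row just outside it was MIOS-DT at 4.97 CPM. A minimum of 2 CPM would have taken 646 rows and a minimum of 10 CPM 171. In 26 member rows at least 1 transcript was not listed in GENCODE v29.

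PEO1 is a human ovarian cancer line whose p53 is called mutant in the title of the series. Cells received a control siRNA (siControl, named sipNC in the sample titles) or an siRNA against p53 (sip53), and all of them spent 48 h in phenol red-free medium with charcoal-stripped serum, which removes steroid hormones. Estradiol (E2) was then given at 10 nM for 2 or 8 h, and the 0 h libraries were untreated, which made 6 groups of 3 libraries: siControl at 0, 2 and 8 h and sip53 at 0, 2 and 8 h. The labels do not say that the 3 libraries of a group came from separate cultures, so p-values measure the spread between these libraries, which may be technical. A single cell line stands behind every comparison. No library at 2 or 8 h was left without E2, so E2 and the hours passed cannot be told apart.

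LncRNAs are transcripts too long to be classed as small RNAs that are not translated into a known protein. Many are capped, spliced and polyadenylated like messenger RNAs, and they act, where a role is known, in the nucleus as parts of nuclear bodies or as regulators of neighbouring genes, or in the cytoplasm as binding platforms for proteins and microRNAs. Others matter for what is cut out of them: small nucleolar RNAs (snoRNAs), which guide the modification of ribosomal RNA, and microRNAs, which pair with messenger RNAs through a short stretch called the seed, are often processed from introns or exons of lncRNA host genes.

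The libraries were made with a 3′ kit that primes on poly(A), so a count stands for a transcript end or an A run within it, and levels are not per length. The last 100 bases of the annotated transcripts are shown for 3 members that the results turn on, with the polyadenylation hexamer in capitals. Whether the counts of these members, MALAT1 among them, came from these annotated ends or from A runs elsewhere in the RNA was not tested. The printed bases were read 5′ to 3′ from the GENCODE v29 transcripts (GRCh38).
MALAT1: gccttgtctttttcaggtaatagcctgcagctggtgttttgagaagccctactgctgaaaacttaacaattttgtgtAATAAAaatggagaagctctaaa
LINC01133: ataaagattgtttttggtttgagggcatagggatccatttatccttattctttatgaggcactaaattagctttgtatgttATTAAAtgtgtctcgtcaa
LINC00662: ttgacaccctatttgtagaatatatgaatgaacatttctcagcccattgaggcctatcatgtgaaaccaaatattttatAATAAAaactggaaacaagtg
Across all members, 202 of 331 (61%) had AATAAA or ATTAAA in the last 50 bases of their longest listed transcript, against 77.9% of the 10088 protein-coding rows at the same minimum. When any listed transcript counted, 74.9% of the members and 91.4% of the coding rows had one. An uninterrupted run of at least 8 A in the last 200 bases was found in 14.5% of the members and in 6.95% of the coding rows. The longest transcript had a median of 2025 bases in the members and 3736 in the coding rows.

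MicroRNA host genes made up 16 of the member rows. The mature microRNAs of 3 hosts are printed 5′ to 3′ with the seed, bases 2 to 8, in capitals (RefSeq, GRCh38.p14), because they show what the host RNAs carry. MIR200CHG holds miR-200c and miR-141, MIR222HG holds miR-221 and miR-222, and MIRLET7BHG holds let-7a and let-7b.
hsa-miR-200c-3p: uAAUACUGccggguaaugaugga
hsa-miR-141-3p: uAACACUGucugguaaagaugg
hsa-miR-221-3p: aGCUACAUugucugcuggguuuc
hsa-miR-222-3p: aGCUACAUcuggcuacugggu
hsa-let-7a-5p: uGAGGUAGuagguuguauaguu
hsa-let-7b-5p: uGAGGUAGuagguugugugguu
The pair from MIR222HG shares 1 seed and so does the let-7 pair. The small RNAs themselves are not measured by these libraries, and the values of the hosts below are those of the host transcripts.

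Total counts ran from 7542457 to 11307199 per library, and the biological coefficient of variation was 15.2%. All 9 epithelial and ovarian carcinoma markers examined had a median above 1 CPM, with a summed level of 3720 to 5515 CPM per library. The fibroblast markers summed to 4.56 to 13.5 CPM, nearly all from COL1A1 (4.56 to 13.4 CPM), with COL1A2, COL3A1, DCN and LUM at 0 in every library. The leukocyte markers summed to 9.18 to 21.1 CPM, nearly all from CD68 (4.9 to 11.9 CPM) and CD14 (4.1 to 9.2 CPM), with PTPRC and CD3E at 0. The endothelial markers summed to at most 1.08 CPM. RPS27L, a p53-induced ribosomal protein paralog, was lower in sip53 at 0 h (log2 fold change -1.81 ± 0.24), as was the cell cycle inhibitor CDKN1A (-0.71 ± 0.17). GREB1, an estrogen receptor target, was not called after 8 h of E2 in siControl (1.11 ± 0.48, adjusted p = 0.23) or in sip53 (1.51 ± 0.45, 0.0748), and its 0 h libraries stood at 0.489 to 2.40 CPM. Libraries within a group differed in ways that touch the members. In siControl at 0 h replicate 1 was the lowest of the 3 libraries for 31 of the 40 members later called lower after the p53 siRNA and for 142 of the other 291, and at 2 h for 28 of 40 and 163 of 291; the same libraries entered those calls. In sip53 at 0 h replicate 3 was the lowest library for 26 of these 40 members and for 79 of the other 291, and at 8 h for 23 of 40 and 63 of 291. Without sip53 replicate 3 the calls went from 29 to 7 at 0 h and from 26 to 8 at 8 h. Replicate 2 of siControl at 0 h had the fewest counts of all libraries. The part of these libraries in the results was examined by leaving each out, and counts without them stand beside the results.

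Member levels spanned from 5.01 CPM to 26647 CPM, and 1 gene held most of the signal. MALAT1 (ENSG00000251562, chr11:65497688-65506516, plus strand, GRCh38), the abundant RNA of nuclear speckles, took between 1.58% and 3.92% of all counts in a library. The other member rows together summed to 6530.1 to 8442 CPM (scaled by TMM, the trimmed mean of M values). Below MALAT1 came ZFAS1 at a mean of 399 CPM, a host of snoRNAs, AC021078.1 at 292 CPM, which shares exon sequence with the kinase gene CSNK1A1 on the same strand, NORAD at 207 CPM, a sponge for Pumilio proteins, LINC01133 at 173 CPM and GAS5 at 146 CPM, another snoRNA host. Only 11 rows reached 100 CPM, 160 lay under 10 CPM, and the median was 10.4 CPM. Of the 331, 6 had a siControl mean under 5 CPM and 24 a sip53 mean under 5 CPM, so those members passed the minimum only through the other arm.

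Position set limits on what the counts can tell. For 119 members an exon overlapped an exon of a protein-coding gene on the other strand, for 40 on the same strand, and for 144 on at least 1 of the strands. An exon of any other gene overlapped 187 members, and the remaining 144 had no such overlap. The sources used here do not give the strand setting of the counting, so reads from an antisense member and its partner may be mixed, and reads on the same strand may be split between the member and the coding gene. In 106 cases the start of the member lay within 1000 bases of the start of a coding gene on the other strand, the arrangement called head to head.

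The first comparison asked how these RNAs differed between sip53 and siControl cells at each time. More members were lower than higher after the p53 siRNA. The test called 5 higher and 24 lower members at 0 h, then 6 against 26 with 2 h of E2 and 6 against 20 with 8 h (edgeR's quasi-likelihood test, Benjamini-Hochberg adjusted p under 0.05 over 15318 rows). These are 8.76%, 9.67% and 7.85% of the 331, against 9.12%, 12.2% and 8.96% of all rows tested, so the share called was near or under that background at each time. The lower members were 7.25%, 7.85% and 6.04% of the 331, beside 5.14%, 7.79% and 6.14% of all rows, and the higher members 1.51%, 1.81% and 1.81%, beside 3.98%, 4.42% and 2.81%. The median log2 fold change of the members was -0.12 at 0 h, -0.01 at 2 h and -0.03 at 8 h, and 0.00 to 0.01 in size over all rows. In all, 56 members were called at 1 or more of the 3 times, 40 of them lower and 16 higher, and 0 were called in opposite directions at different times. The same counts were not made over all rows, so they are a description and do not set the members apart. Of the 40 lower members, 12 had a sip53 mean under 5 CPM and passed the minimum only through siControl, so the rule itself favoured a lower value for them, and of the 16 higher members 1 (CRIM1-DT) passed only through sip53. The 12 made up 6 of the 24 lower calls at 0 h, 8 of 26 at 2 h and 7 of 20 at 8 h, and the excess of lower over higher members is a description.

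**Figure D1:**
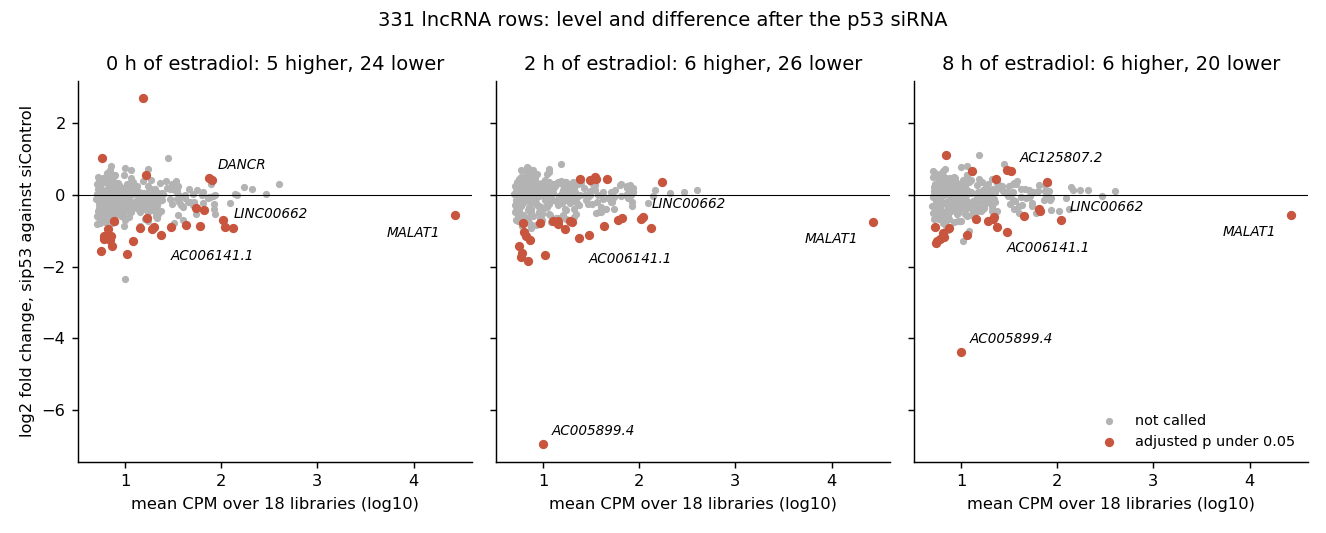
Mean CPM of each of the 331 lncRNA rows over 18 libraries (log10, horizontal) against the log2 fold change of sip53 over siControl (vertical) at 0, 2 and 8 h of estradiol. Red points had an adjusted p under 0.05, with the counts over each panel; MALAT1 stands alone at the right, and the point far below the rest at 2 and 8 h is AC005899.4, which was at or near 0 in most sip53 libraries.

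The counts moved with single libraries. At 0 h the number of members called was 48 without siControl replicate 1, 15 without siControl replicate 2, 12 without siControl replicate 3, 14 without sip53 replicate 2 and 7 without sip53 replicate 3. At 2 h it was 17 and 16 without siControl replicates 2 and 3, and 20, 19 and 11 without sip53 replicates 1, 2 and 3. At 8 h it was 7 and 15 without siControl replicates 1 and 2 and 8 without sip53 replicate 3. Calls kept in every one of the 6 fits that left out 1 library numbered 6 of 29 at 0 h, 11 of 32 at 2 h and 5 of 26 at 8 h. Among them were LINC00662, HCG18, AC006141.1 and ZNF528-AS1 at 0 h, MALAT1, FGD5-AS1, AC011447.3, AC006141.1, LINC01410, GHRLOS and APPAT at 2 h, and AC125807.2 and AP002761.4 at 8 h. The kept calls of LINC01410, GHRLOS, BMS1P4-AGAP5, Z83843.1 and AC005899.4 at 2 h came from rows that passed the minimum only through siControl. So did those of AC005899.4 and AC006504.1 at 8 h. The rule favoured a lower value for these rows, so their being kept is a description.

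At all 3 times 9 members were lower and 0 higher, 2.72% of the 331, and 2.72% of all rows tested were lower and 1.04% higher at all 3 times. Either direction together, 2.72% of the members, 3.75% of all rows and 5.22% of the protein-coding rows at the same minimum were called at all 3 times. The 9 were MALAT1, LINC00662, FGD5-AS1, HCG18, AC011447.3, AC006141.1, GHRLOS, AC145124.1 and BMS1P4-AGAP5, of which GHRLOS, AC145124.1 and BMS1P4-AGAP5 passed the minimum only through siControl. The count was 5 and 4 without siControl 0 h replicates 2 and 3, 2 without siControl 8 h replicate 1, 4 and 3 without sip53 0 h replicates 2 and 3, and 1 without sip53 8 h replicate 3. The 3 times use different libraries but share 1 model.

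MALAT1 stood at 24868, 34086 and 39054 CPM in siControl at 0 h and at 25552, 23079.6 and 17703 in sip53 (levels from here on are TMM-scaled). At 2 h it stood at 21456, 30588 and 32888 in siControl and 17554, 15905 and 17039 in sip53, and at 8 h at 39171, 34111 and 33623 and 23780.4, 26035 and 23113. Every sip53 library lay below every siControl library at 2 and 8 h, while at 0 h siControl replicate 1 lay below sip53 replicate 1. Untreated sip53 cells had a log2 fold change of -0.56 ± 0.15 (adjusted p = 0.0212), followed by -0.75 ± 0.15 (0.00245) with 2 h of E2 and -0.55 ± 0.15 (0.0225) with 8 h. With 2 h of E2 the call stood without any 1 of the 6 libraries. With a library left out, and the adjusted p of that fit in parentheses, it was lost at 0 h without siControl 0 h replicate 2 (0.0644), siControl 0 h replicate 3 (0.119), sip53 0 h replicate 2 (0.057) or sip53 0 h replicate 3 (0.153), and at 8 h without siControl 8 h replicate 1 (0.123), siControl 8 h replicate 2 (0.0509), sip53 8 h replicate 1 (0.0708) or sip53 8 h replicate 3 (0.116). As a share of all counts MALAT1 averaged 3.30%, 2.87% and 3.53% in siControl at 0, 2 and 8 h and 2.20%, 1.68% and 2.42% in sip53. The sum over the other members averaged 7680, 7088 and 7493 CPM in siControl and 6960, 6840 and 7313 CPM in sip53.

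LINC00662 (ENSG00000261824, chr19:27684580-27793940, minus strand), an intergenic RNA of chromosome 19 whose 3′ end is printed above, stood at 99.7, 165 and 138 CPM in siControl at 0 h and 67.3, 80.2 and 68.8 CPM in sip53. At 2 h the values were 89.6, 120.3 and 115 against 74.8, 70.5 and 64.6, and at 8 h 173, 149.6 and 177 against 118, 99.7 and 87.9. The groups did not overlap at any of the 3 times, and siControl replicate 1 was the lowest of its group at 0 and 2 h. Relative to siControl, sip53 differed on the log2 scale by -0.89 ± 0.15 without E2 (adjusted p = 0.00118), -0.63 ± 0.15 with 2 h of E2 (0.00886) and -0.71 ± 0.15 with 8 h (0.00532). The call at 2 h was lost without siControl 2 h replicate 2 (0.067) or sip53 2 h replicate 3 (0.0603), and the call at 8 h without sip53 8 h replicate 3 (0.0563).

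**Figure D2:**
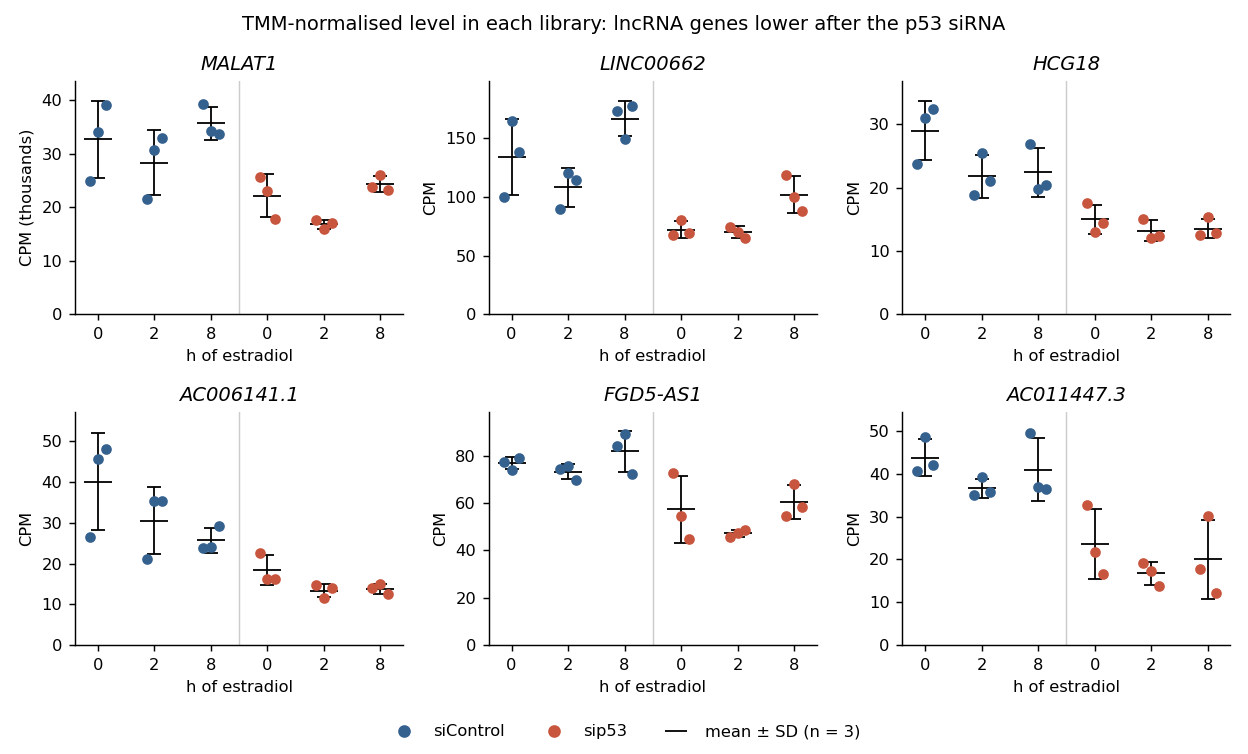
TMM-normalised CPM (vertical, divided by 1000 for MALAT1) in each library of 6 lncRNA genes by hours of estradiol (horizontal), siControl in blue and sip53 in red; black bars are the mean and SD of 3 libraries. Every sip53 library lay under every siControl library at the same hour in these panels, except MALAT1 at 0 h, where 24868 CPM in siControl lay under 25552 CPM in sip53.

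HCG18 (ENSG00000231074, chr6:30287397-30327150, minus strand), a noncoding gene of the major histocompatibility complex region, starts head to head with the ubiquitin ligase gene TRIM39 and overlaps one of its exons. It stood at 23.7, 30.9 and 32.4 CPM in siControl at 0 h and 17.6, 13.1 and 14.4 CPM in sip53, with no overlap. Relative to siControl, sip53 differed on the log2 scale by -0.95 ± 0.17 without E2 (adjusted p = 0.00223), -0.72 ± 0.17 with 2 h of E2 (0.00936) and -0.73 ± 0.17 with 8 h (0.0111), the call at 2 h being lost without siControl 2 h replicate 2 (0.0764) or sip53 2 h replicate 3 (0.0537) and that at 8 h without siControl 8 h replicate 1 (0.0977), sip53 8 h replicate 1 (0.0511) or sip53 8 h replicate 3 (0.0731). TRIM39 itself was not called, with a log2 difference of -0.28 ± 0.23 (adjusted p = 0.48) at 0 h.

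FGD5-AS1 (ENSG00000225733, chr3:14920347-14948424, minus strand), which starts head to head with the nuclear receptor gene NR2C2, stood at 74.5, 75.8 and 69.7 CPM in siControl at 2 h and 45.6, 47.3 and 48.6 CPM in sip53. The 2 groups did not overlap. The log2 fold change was -0.64 ± 0.13 (adjusted p = 0.00386) at 2 h, -0.42 ± 0.13 at 0 h (0.0478) and -0.44 ± 0.13 at 8 h (0.0411). The call at 0 h was lost without siControl 0 h replicate 1 (0.0668), siControl 0 h replicate 2 (0.0822), siControl 0 h replicate 3 (0.117), sip53 0 h replicate 2 (0.147) or sip53 0 h replicate 3 (0.28). The call at 8 h was lost without siControl 8 h replicate 1 (0.134), siControl 8 h replicate 2 (0.151), sip53 8 h replicate 1 (0.146) or sip53 8 h replicate 3 (0.159). NR2C2 was not called, at -0.48 ± 0.40 (adjusted p = 0.495) at 2 h.

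AC006141.1 (ENSG00000264895, chr17:51249579-51251748, minus strand), an unspliced RNA typed sense intronic with no exon overlap, stood at 26.5, 45.7 and 48.1 CPM in siControl at 0 h and 22.7, 16.3 and 16.3 CPM in sip53, and at 2 h at 21, 35.3 and 35.4 and 14.7, 11.5 and 13.9. The groups did not overlap, and again siControl replicate 1 was the lowest of its group at both times. On the log2 scale sip53 stood at -1.12 ± 0.21 without E2 (adjusted p = 0.00289), -1.19 ± 0.22 with 2 h of E2 (0.00138) and -0.90 ± 0.22 with 8 h (0.0113), the last call being lost without sip53 8 h replicate 3 (0.0788).

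AC011447.3 (ENSG00000267383), antisense to the zinc finger gene ZNF90, had log2 fold changes of -0.89 ± 0.24, -1.12 ± 0.25 and -1.03 ± 0.24 at 0, 2 and 8 h. GHRLOS, the antisense RNA of the ghrelin gene GHRL, had -0.95 ± 0.26, -1.16 ± 0.27 and -1.18 ± 0.28. For both the call at 2 h stood in each of the 6 fits without 1 library. GHRLOS passed the minimum only through siControl, so its calls are a description. At 0 h AC011447.3 was lost without siControl 0 h replicate 2 (0.0806), siControl 0 h replicate 3 (0.0577), sip53 0 h replicate 2 (0.0957) or sip53 0 h replicate 3 (0.16) and at 8 h without siControl 8 h replicate 1 (0.0767) or sip53 8 h replicate 3 (0.0853). GHRLOS was lost at 0 h without siControl 0 h replicate 2 (0.059), siControl 0 h replicate 3 (0.127), sip53 0 h replicate 2 (0.0724) or sip53 0 h replicate 3 (0.156) and at 8 h without siControl 8 h replicate 1 (0.0599). The other 2 rows called at all 3 times belong to multicopy families and are uncertain. Both also passed the minimum only through siControl, so their calls are a description. BMS1P4-AGAP5, which shares exon sequence with AGAP5, had -1.22 ± 0.29, -1.62 ± 0.30 and -1.24 ± 0.29, lost at 0 h without sip53 0 h replicate 3 (0.0835) and at 8 h without siControl 8 h replicate 1 (0.0751) or sip53 8 h replicate 3 (0.0651). AC145124.1, which starts beside FAM86B1, had -1.56 ± 0.38, -1.42 ± 0.40 and -1.29 ± 0.38. It was lost at 0 h without siControl 0 h replicate 3 (0.077), sip53 0 h replicate 2 (0.0509) or sip53 0 h replicate 3 (0.108), at 2 h without siControl 2 h replicate 2 (0.0792), siControl 2 h replicate 3 (0.0863), sip53 2 h replicate 1 (0.0613), sip53 2 h replicate 2 (0.0785) or sip53 2 h replicate 3 (0.0683), and at 8 h without siControl 8 h replicate 1 (0.157), siControl 8 h replicate 3 (0.0785) or sip53 8 h replicate 3 (0.192).

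Other members were lower at 1 or 2 of the times. ZNF528-AS1 (ENSG00000269834), head to head with the zinc finger gene ZNF528, stood at 55.1, 106 and 88 CPM in siControl at 0 h and 45.5, 47.5 and 41.9 CPM in sip53, without overlap. Its log2 fold change was -0.88 ± 0.18 (adjusted p = 0.00423), and -0.70 ± 0.18 at 2 h (0.0119), a call lost without siControl 2 h replicate 2 (0.0558), siControl 2 h replicate 3 (0.0693), sip53 2 h replicate 2 (0.0543) or sip53 2 h replicate 3 (0.0528). Its partner ZNF528 was lower as well at 2 h, by -0.75 ± 0.20 (adjusted p = 0.0145), and at 0 h stood at -0.52 ± 0.20 (adjusted p = 0.0971). APPAT (ENSG00000230606), an intergenic RNA of chromosome 2, stood at 97.6, 160.5 and 154 CPM in siControl at 2 h and 80.6, 63.4 and 72.4 CPM in sip53. The groups were separate there (log2 -0.93 ± 0.21, adjusted p = 0.00629) and overlapped at 8 h (-0.39 ± 0.21, 0.248). LINC01410, which also passed the minimum only through siControl, was lower at 2 h by 1.74 ± 0.31 on the log2 scale (adjusted p = 0.00129), with 9.88, 8.93 and 8.57 CPM in siControl and 3.02, 2.53 and 2.62 in sip53, in each fit without 1 library. KCNQ1OT1, the imprinted RNA antisense to the potassium channel gene KCNQ1, was lower at 0 h (-0.71 ± 0.18, adjusted p = 0.0161, lost without siControl 0 h replicate 2 (0.0827), siControl 0 h replicate 3 (0.0676) or sip53 0 h replicate 3 (0.116)). At 2 h its difference was -0.68 ± 0.18 (0.0142, lost without siControl 2 h replicate 2 (0.111), siControl 2 h replicate 3 (0.0655), sip53 2 h replicate 2 (0.0801) or sip53 2 h replicate 3 (0.053)).

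Fewer members were higher after the p53 siRNA. AC125807.2 (ENSG00000250899, chr12:3041437-3044950, plus strand), an intergenic RNA with no exon overlap, stood at 27.7, 30.1 and 29.3 CPM in siControl at 8 h and 51.1, 42.4 and 44 CPM in sip53. Every sip53 library was above every siControl library (log2 0.66 ± 0.13, adjusted p = 0.00428), and the call stood without any 1 of them. At 0 h the same difference was 0.14 ± 0.14 (0.558). AP002761.4 also stood in all 6 fits at 8 h (0.70 ± 0.14, 0.0033). DANCR, a snoRNA host that also holds a microRNA, stood at 67.3, 62.6 and 54.2 CPM in siControl at 0 h and 92, 84.5 and 81.1 CPM in sip53. It was higher by 0.48 ± 0.12 (adjusted p = 0.0148), a call lost without siControl 0 h replicate 3 (0.0811). EPB41L4A-AS1, another snoRNA host, was higher at 2 h by 0.45 ± 0.12 (0.0145), lost without siControl 2 h replicate 2 (0.0613), siControl 2 h replicate 3 (0.0527) or sip53 2 h replicate 3 (0.0773). MILIP, a MYC-inducible RNA that starts beside MAFG, was higher at 8 h by 0.66 ± 0.17 (0.0181), lost without siControl 8 h replicate 1 (0.0578), siControl 8 h replicate 2 (0.0699) or sip53 8 h replicate 1 (0.0559).

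Rows with libraries at 0 need separate words. AC005899.4, which shares exon sequence with RHBDL3 and ZNF207 on its strand, stood at 16.2, 22.1 and 13.8 CPM in siControl at 2 h and 0, 0 and 0.361 CPM in sip53. At 8 h it stood at 23.9, 15.6 and 8.3 and 0, 1.53 and 0.76 CPM, and at 0 h at 20.6, 19.6 and 24.9 and 12.6, 0 and 0. It passed the minimum only through siControl, so its calls at 2 and 8 h are a description, and no fold change is given because most sip53 libraries were at or near 0. AC000120.1, which shares exon sequence with KRIT1, stood at 6.01, 0 and 2.81 CPM in siControl at 0 h and 18.4, 17 and 25 CPM in sip53 (adjusted p = 0.00106). Whether reads of these rows were assigned differently between overlapping transcripts in different libraries was not tested.

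By role, the lists were small. Of 5 members that are nuclear or other structural RNAs, MALAT1 and KCNQ1OT1 were lower at 0 and 2 h and MALAT1 at 8 h, and NORAD, TUG1 and OIP5-AS1 were not called at any time, with log2 differences of 0.16 ± 0.09, -0.22 ± 0.12 and 0.13 ± 0.12 at 0 h. Of 9 snoRNA hosts, 1 was higher at 0 h (DANCR), 1 at 2 h (EPB41L4A-AS1) and 0 at 8 h, and 0 were lower. A single call is 11.1% of this list, near the 9.12% and 12.2% of all rows called at 0 and 2 h. The list's median log2 difference was 0.18, 0.30 and 0.17, beside 0.00 to 0.01 in size over all rows. ZFAS1, the highest of them, stood at 309 ± 77.9 CPM in siControl at 0 h and 379.6 ± 12.2 CPM in sip53 (n = 3 each), with siControl replicate 2 the lowest at 226 CPM, and was not called (log2 0.30 ± 0.13, adjusted p = 0.165). The 2 members of the p53-linked list were not called at any time: GAS5 at -0.01 ± 0.09, 0.15 ± 0.09 and 0.14 ± 0.09, and LINC-PINT, a p53-induced transcript, at -0.21 ± 0.22, -0.04 ± 0.22 and -0.17 ± 0.21. PVT1 of the same list was no member, because its row also held another gene. It was called lower at 0 and 2 h, as given under the other observations.

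Among the 16 microRNA host rows, 2 were higher and 1 lower at 0 h, 2 were lower at 2 h and 1 at 8 h, with medians of -0.20, -0.11 and -0.06. These are 18.8%, 12.5% and 6.25% of the list, beside 9.12%, 12.2% and 8.96% of all rows. DANCR and AC000120.1 were higher at 0 h. AC005899.4 was lower at 2 and 8 h, and 1 of 2 rows of FTX was lower at 0 and 2 h, the other row of FTX not being called. Both lower rows passed the minimum only through siControl, so these calls are a description. The FTX call was lost at 0 h without siControl 0 h replicate 2 (0.27), sip53 0 h replicate 2 (0.0755) or sip53 0 h replicate 3 (0.125). At 2 h it was lost without siControl 2 h replicate 2 (0.249), siControl 2 h replicate 3 (0.148), or any of sip53 2 h replicates 1 (0.091), 2 (0.159) and 3 (0.107). MIR200CHG, whose microRNAs are printed above, stood at 22.3 ± 3.7 CPM in siControl and 22.4 ± 5.58 CPM in sip53 at 0 h (n = 3 each) and was not called at any time. MIR222HG stood at 12.1, 8.13 and 10.0 CPM in siControl at 8 h and 14.6, 14.2 and 24.2 CPM in sip53. These groups did not overlap, and the difference missed the threshold (log2 0.81 ± 0.28, adjusted p = 0.0702). MIRLET7BHG varied more within groups than between them, with 43.3, 89.2 and 56.4 CPM in siControl and 40.5, 65.1 and 57.6 CPM in sip53 at 0 h (log2 -0.21 ± 0.25, adjusted p = 0.65).

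Members that share a start region or exon sequence with a coding gene were set beside that gene. Over 99 head-to-head pairs with both genes tested, the log2 differences of the 2 genes had a Pearson r of 0.22 at 0 h, 0.15 at 2 h and 0.17 at 8 h across pairs, a description over genes that were measured in the same libraries. Of the 99 pairs, the member was called in 8, 9 and 8 and the coding gene in 13, 17 and 12 at 0, 2 and 8 h. Pairs in which both were called are listed as a description, and their number was not tested. Both genes were called in 1 pair at 0 h (CRIM1-DT with CRIM1, both higher), 2 at 2 h (ZNF528-AS1 with ZNF528, both lower, and CD27-AS1 with TAPBPL, both higher) and 1 at 8 h (ZNF407-AS1 with ZNF407, both lower; this pair was named after its values were seen). CRIM1-DT stood at 4.11, 4.88 and 2.69 CPM in siControl at 0 h and 6.29, 8.67 and 9.02 CPM in sip53, without overlap (log2 1.04 ± 0.25, adjusted p = 0.0148, lost without siControl 0 h replicate 3 (0.0813), sip53 0 h replicate 2 (0.0584) or sip53 0 h replicate 3 (0.0855)). CRIM1-DT passed the minimum only through sip53, so its call is a description. CRIM1, which encodes a membrane protein that binds BMP ligands, was higher by 0.43 ± 0.13 (adjusted p = 0.041). CD27-AS1 (log2 0.44 ± 0.13, adjusted p = 0.0265) was lost without siControl 2 h replicate 1 (0.0887), siControl 2 h replicate 2 (0.0526), siControl 2 h replicate 3 (0.0604), sip53 2 h replicate 1 (0.0541), sip53 2 h replicate 2 (0.0761) or sip53 2 h replicate 3 (0.089). ZNF407-AS1 (log2 -0.61 ± 0.18, 0.0397) was lost without siControl 8 h replicate 1 (0.0963), siControl 8 h replicate 2 (0.206), sip53 8 h replicate 1 (0.0879), sip53 8 h replicate 2 (0.0762) or sip53 8 h replicate 3 (0.15). Over 99 pairs with antisense exon overlap r was 0.02, 0.05 and -0.05, and both genes were called in 0 pairs at each time.

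The second comparison asked how these RNAs differed between the E2 libraries and the untreated 0 h libraries of each siRNA arm. An E2 response here means that difference, which E2 and the hours passed may both enter. At 2 h 0 of 331 members were called in siControl and 0 in sip53, beside 0.228% of all rows in siControl, all higher, and 0.307% in sip53, 0.268% higher and 0.0392% lower. An unadjusted p under 0.05 was found for 51 members in siControl and 27 in sip53, beside 1748 and 1139 of 15318 rows. DESeq2 called 3 and 0. Without siControl 0 h replicate 1 the siControl count was 5. At 8 h 5 members were higher and 5 lower in siControl, 3.02% of the 331 beside 2.6% of all rows (1.78% higher and 0.823% lower), and 5 were higher and 7 lower in sip53, 3.63% beside 2.74% (1.55% higher and 1.18% lower). The siControl count at 8 h was 28 without siControl 0 h replicate 1, 6 without siControl 0 h replicate 2, and 6 and 5 without siControl 8 h replicates 1 and 2. The sip53 count was 7 and 7 without sip53 0 h replicates 2 and 3 and 3 without sip53 8 h replicate 3. The 2 arms share no library. The contrasts at 2 and 8 h within an arm share its 0 h libraries, which also enter the comparison of siRNAs at 0 h.

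Of the 18 members called at 8 h in either arm, 4 were called in both, 40% of the siControl calls and 33.3% of the sip53 calls. Over all rows tested 177 were called in both arms, 44.4% of the 399 siControl calls and 42.2% of the 419 sip53 calls, so the members' overlap was no larger than that of all rows. LINC01133 and CRNDE were higher in both arms, and LUCAT1 and AC022144.1 lower in both. The promoters of LINC01133, CRNDE and LUCAT1, and that of LINC00641, which was lower in siControl, are printed 5′ to 3′ on the strand of the gene (RefSeq, GRCh38.p14), from 250 bases before to 50 after the RefSeq start, which can differ from the GENCODE start, as the regions next to the genes that moved. Capitals mark the AP-1 match TGAGTCA in LUCAT1 and the estrogen response element half-site TGACC in LINC00641; LINC01133 and CRNDE held neither motif.
LINC01133 (chr1:159960974-159961273, plus strand): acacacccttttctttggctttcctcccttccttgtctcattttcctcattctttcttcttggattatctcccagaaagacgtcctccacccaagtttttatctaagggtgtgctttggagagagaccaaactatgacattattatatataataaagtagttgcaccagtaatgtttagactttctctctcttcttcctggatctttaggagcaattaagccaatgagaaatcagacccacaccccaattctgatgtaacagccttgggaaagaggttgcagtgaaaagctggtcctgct
CRNDE (chr16:54928837-54929136, minus strand): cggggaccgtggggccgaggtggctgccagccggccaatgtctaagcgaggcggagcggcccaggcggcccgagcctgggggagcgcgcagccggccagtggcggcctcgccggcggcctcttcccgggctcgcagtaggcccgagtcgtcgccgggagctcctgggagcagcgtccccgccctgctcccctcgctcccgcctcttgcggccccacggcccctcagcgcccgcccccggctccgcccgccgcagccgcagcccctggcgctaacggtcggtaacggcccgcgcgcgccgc
LUCAT1 (chr5:91314353-91314652, minus strand): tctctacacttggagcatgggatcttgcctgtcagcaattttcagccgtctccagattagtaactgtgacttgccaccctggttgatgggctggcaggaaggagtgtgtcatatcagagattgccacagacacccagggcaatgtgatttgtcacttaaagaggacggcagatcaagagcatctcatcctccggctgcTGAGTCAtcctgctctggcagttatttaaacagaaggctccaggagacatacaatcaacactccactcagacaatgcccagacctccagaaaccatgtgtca
LINC00641 (chr14:21206851-21207150, minus strand): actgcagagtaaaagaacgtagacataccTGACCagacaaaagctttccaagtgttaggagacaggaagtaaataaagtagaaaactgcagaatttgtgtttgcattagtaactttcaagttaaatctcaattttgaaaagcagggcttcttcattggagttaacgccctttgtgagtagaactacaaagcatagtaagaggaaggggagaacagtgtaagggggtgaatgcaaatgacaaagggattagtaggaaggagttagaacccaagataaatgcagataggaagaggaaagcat

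A RefSeq promoter was found for 170 members. The palindromic estrogen response element, in which the half-site GGTCA faces its reverse complement 3 bases away, was in 0 of these 170 and in 0.057% of 35116 promoters of the same length, searched on both strands. Its half-site GGTCA, which overlaps the palindrome, was in 38.8% of member promoters and 37.4% of all. The AP-1 motif TGANTCA was in 7.06% and 7.71%, and the p53 half-site in 7.06% and 6.63%. The GC box GGGCGG was in 57.1% of member promoters and 45% of all, and the CCAAT box CCAAT in 42.9% and 34.6%. The promoter of CRNDE was 80% G and C with 44 CpG, and those of LINC01133, LUCAT1 and LINC00641 were 41.3%, 49.7% and 39% G and C with 1, 3 and 2. A match is a run of letters and not a bound site.

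LINC01133 (ENSG00000224259, chr1:159961218-159984750, plus strand), an intergenic RNA known from epithelial tumours, stood at 111, 133 and 138 CPM in siControl at 0 h, 144, 147 and 128 at 2 h and 204, 236 and 192 at 8 h. In sip53 it stood at 136, 157 and 155, 177, 183 and 179 and 239.9, 229.7 and 225 CPM. Every 8 h library lay above every 0 h and 2 h library of its arm. It rose at 8 h by 0.73 ± 0.10 on the log2 scale in siControl (adjusted p = 0.00012) and 0.63 ± 0.10 in sip53 (0.000552), calls that stood in each fit without 1 library. The difference between the arms was -0.10 ± 0.14 and was not called (adjusted p = 0.999). At 2 h it was also higher in sip53 than in siControl (log2 0.36 ± 0.10, adjusted p = 0.0217), lost without siControl 2 h replicate 3 (0.0934), sip53 2 h replicate 1 (0.0509), sip53 2 h replicate 2 (0.078) or sip53 2 h replicate 3 (0.0658).

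CRNDE (ENSG00000245694, chr16:54845189-54929189, minus strand), an RNA named for its expression in colorectal neoplasia whose nearest coding gene is the homeobox gene IRX5, stood at 24.8, 20.5 and 22.6 CPM in siControl at 0 h and 42.1, 48.6 and 43.4 at 8 h. In sip53 it stood at 29.1, 28.7 and 31.8 CPM at 0 h and 41.8, 44.6 and 52.4 at 8 h. The 0 and 8 h libraries were separate in both arms. It rose by 0.98 ± 0.13 in siControl (adjusted p = 9.62e-05) and 0.63 ± 0.13 in sip53 (0.00689), the latter call being lost without sip53 8 h replicate 3 (0.0618). The difference of the 2 responses was -0.35 ± 0.19 (adjusted p = 0.999).

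**Figure D3:**
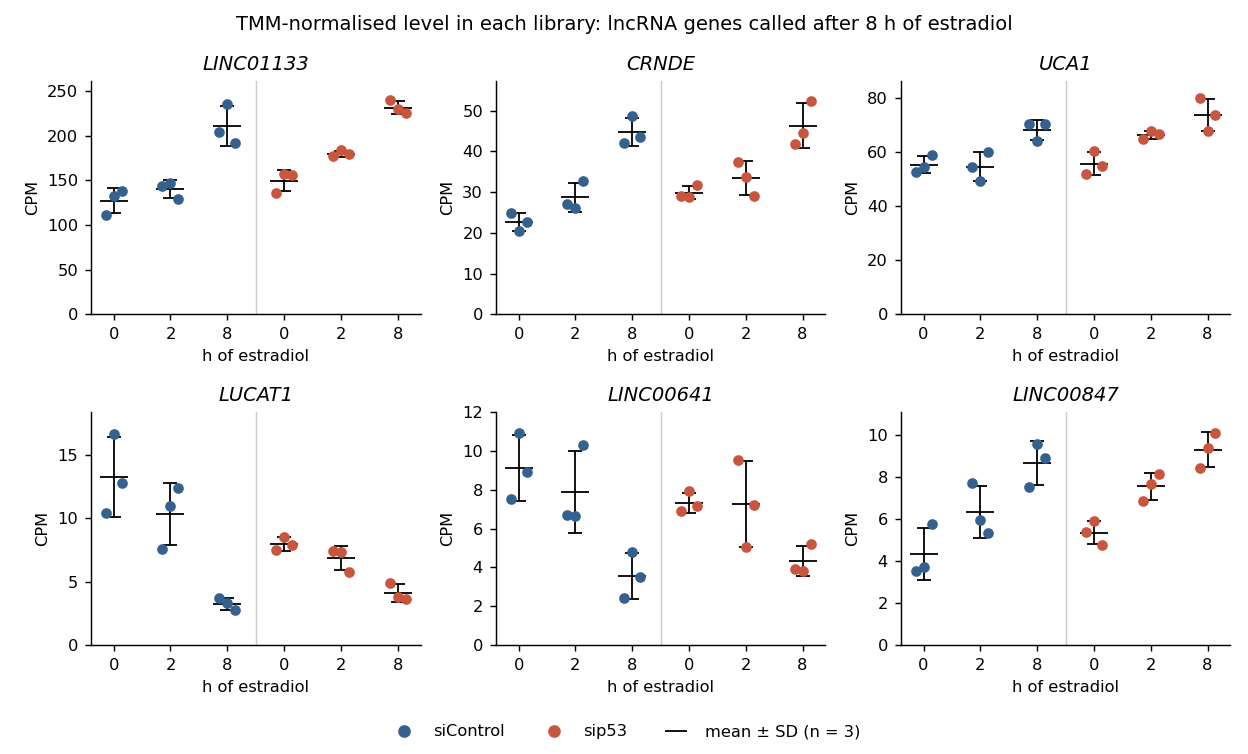
TMM-normalised CPM (vertical) in each library of 6 lncRNA genes called after 8 h of estradiol in 1 or both arms, by hours of estradiol (horizontal), siControl in blue and sip53 in red; black bars are the mean and SD of 3 libraries. LINC01133 reached 192 to 236 CPM at 8 h in siControl from 111 to 138 CPM at 0 h, and LUCAT1 went from 10.4 to 16.7 CPM to 2.77 to 3.71 CPM.

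LUCAT1 (ENSG00000248323, chr5:91054834-91314547, minus strand), a stress-induced RNA first named in lung cancer, stood at 10.4, 16.7 and 12.8 CPM in siControl at 0 h, 7.61, 11 and 12.4 at 2 h and 3.71, 3.34 and 2.77 at 8 h. In sip53 it stood at 7.49, 8.56 and 7.88, 7.47, 7.37 and 5.78 and 4.89, 3.83 and 3.61 CPM. The 8 h libraries lay below all 0 h libraries of their arm. They also lay under the minimum of 5 CPM in both arms, so the rule favoured a low 8 h value. LUCAT1 passed through the earlier hours, and its calls at 8 h are a description. It fell at 8 h by 2.02 ± 0.25 on the log2 scale in siControl (adjusted p = 2.04e-05), in each fit without 1 library. In sip53 the log2 fold change was -0.95 ± 0.24 (0.0303), a call lost without sip53 0 h replicate 1 (0.0619), sip53 0 h replicate 2 (0.105), sip53 0 h replicate 3 (0.078), sip53 8 h replicate 2 (0.0986) or sip53 8 h replicate 3 (0.161). The difference of the responses was 1.07 ± 0.34 and was not called (adjusted p = 0.999). At 0 h LUCAT1 was lower in sip53 than in siControl (-0.73 ± 0.23, adjusted p = 0.0456), lost without siControl 0 h replicate 2 (0.217), siControl 0 h replicate 3 (0.0958), sip53 0 h replicate 1 (0.0923), sip53 0 h replicate 2 (0.0985) or sip53 0 h replicate 3 (0.154). This comparison and the E2 response in siControl use the same siControl 0 h libraries.

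AC022144.1, antisense to the calpain gene CAPN12, stood at 6.71, 16.8 and 5.86 CPM in siControl at 0 h and 1.04, 2.23 and 2.87 at 8 h, with replicate 2 at 0 h far above the other 2. Its log2 fold change was -2.23 ± 0.40 (adjusted p = 0.00213) in siControl, a call kept in every fit without 1 library, and -1.69 ± 0.39 (0.0178) in sip53, lost without sip53 0 h replicate 2 (0.0502), sip53 0 h replicate 3 (0.0795), sip53 8 h replicate 2 (0.0828) or sip53 8 h replicate 3 (0.071). The siControl 8 h libraries all lay under the minimum of 5 CPM, so AC022144.1 passed through other groups. The rule favoured a low 8 h value there, and its siControl call, though kept, is a description. LINC00641 (ENSG00000258441) stood at 7.51, 10.9 and 8.92 CPM in siControl at 0 h and 2.44, 4.79 and 3.48 at 8 h, without overlap. It was lower by 1.34 ± 0.29 on the log2 scale with an adjusted p of 0.0106, lost without siControl 0 h replicate 2 (0.0618) or siControl 8 h replicate 1 (0.0612). The siControl 8 h libraries of LINC00641 also lay under 5 CPM, so its call is a description too. In sip53 its log2 value was -0.76 ± 0.28 (0.179). The other calls in siControl were AC020978.7 (1.16 ± 0.27) and AC000120.1 on the higher side and PCAT1 (-1.32 ± 0.35) and AL035071.1 (-0.61 ± 0.15) on the lower side, and each was lost without 2 or more of the 6 libraries. LINC00847 was higher in siControl by 1.01 ± 0.23 (adjusted p = 0.019), lost without siControl 0 h replicate 1 (0.0546), siControl 0 h replicate 2 (0.0931), siControl 8 h replicate 2 (0.094) or siControl 8 h replicate 3 (0.0623).

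UCA1 (ENSG00000214049, chr19:15828206-15836326, plus strand), an RNA named from urothelial cancer and the sole member of the estrogen-linked list, stood at 52.7, 54.5 and 59 CPM in siControl at 0 h and 70.5, 64.1 and 70.3 at 8 h, and in sip53 at 52, 60.4 and 54.7 and 79.9, 67.8 and 73.7 CPM. The 8 h libraries lay above the 0 h libraries in both arms. It was called in sip53 (0.41 ± 0.10, adjusted p = 0.0302), lost without sip53 0 h replicate 1 (0.139), sip53 0 h replicate 3 (0.128), sip53 8 h replicate 1 (0.172) or sip53 8 h replicate 3 (0.0923), and not in siControl (0.30 ± 0.10, 0.124). AL353150.1, an RNA typed sense intronic, stood at 9.78, 7.71 and 12.1 CPM in sip53 at 0 h and 23.7, 16.6 and 21.8 at 8 h. It rose by 1.07 ± 0.21 (adjusted p = 0.00505), in each fit without 1 library, and in siControl its value was 0.27 ± 0.22 (0.581). The difference between the arms was 0.80 ± 0.30 and was not called (adjusted p = 0.999). The remaining sip53 calls were lower: AC018638.6 (-1.68 ± 0.40), AC005821.1 (-1.26 ± 0.27), AC036176.3 (-1.09 ± 0.23), SPEN-AS1 (-0.67 ± 0.16) and AL590004.3 (-0.64 ± 0.16), each lost without 2 or more of the 6 libraries. The same RNA that was higher in sip53 at 8 h, AC125807.2, rose with E2 in sip53 (0.55 ± 0.13, adjusted p = 0.0221), lost without sip53 0 h replicate 1 (0.117), sip53 0 h replicate 3 (0.0802), sip53 8 h replicate 1 (0.131) or sip53 8 h replicate 3 (0.0522), and both comparisons share the sip53 8 h libraries.

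**Figure D4:**
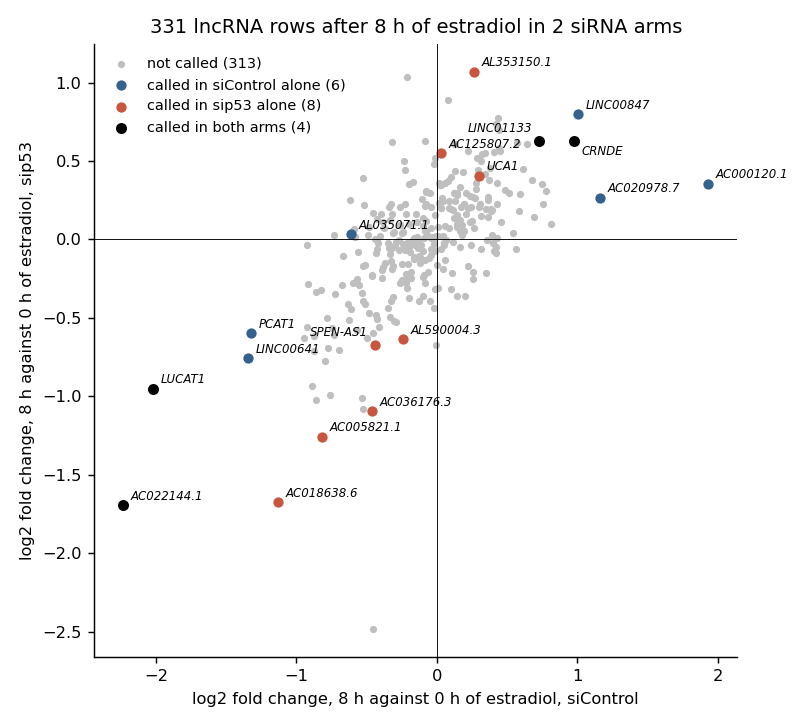
Log2 fold change at 8 h against 0 h of estradiol in siControl (horizontal) and in sip53 (vertical) for the 331 lncRNA rows, which share no library between the axes. Black points were called in both arms (4), blue in siControl alone (6) and red in sip53 alone (8); LUCAT1 and AC022144.1 lie low on both axes and LINC01133 and CRNDE high on both.

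The third comparison asked whether the E2 response differed between the arms. By edgeR's quasi-likelihood test 0 of 331 members differed at 2 h and 0 at 8 h after adjustment, as did 0 of 15318 rows (0% called at either time). At an unadjusted p under 0.05 there were 16 of 331 members at 2 h and 17 at 8 h, beside 451 and 583 of 15318 rows. DESeq2 called 0 members at both times. Calls in 1 arm alone therefore do not show a difference between siControl and sip53. Of 9 snoRNA hosts 0 were called in any E2 contrast, with medians of 0.37 in siControl and 0.31 in sip53 at 8 h. Of 16 microRNA hosts 1 was called (AC000120.1), at 8 h in siControl, where its 0 h libraries stood at 6.01, 0 and 2.81 CPM. Over all rows 2.6% were called at 8 h in siControl and 2.74% in sip53. Lists this small cannot show whether hosts were called more or less often than all rows. The median over all 331 at 8 h was -0.09 in siControl and 0.01 in sip53.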

How the data were processed

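RNA from PEO1 cells in 6 groups of 3 was measured with the QuantSeq 3′ mRNA-Seq V2 FWD kit, per the labels' protocols. The deposited table holds expected counts made by the authors with RSEM 1.3.3, and the submitters' processing notes also name Bowtie2, cutadapt, MultiQC and build hg19. The sources used here do not give the annotation or strand setting. All deposited values were already whole, so rounding them changed none. Rows were named by matching their transcripts to GENCODE v29 (GRCh38), and printed gene coordinates are on GRCh38. The level of the gene targeted by the siRNA is not reported here.

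All rows were fitted with edgeR 4.0.16 in R 4.3.3 (filterByExpr minimum count 10, TMM, glmQLFit and glmQLFTest, 18 libraries, 1 coefficient per group), which left 15318 rows and all 331 members. In all 9 contrasts were read, each with Benjamini-Hochberg adjustment over all rows, and calls are at an adjusted p under 0.05. Errors are SE for log2 fold changes and SD for levels (n = 3). On simulated counts for 14803 rows of the comparison at 0 h, 92 of 100 changes of log2 1 and 19 of 100 of log2 0.5 were called, and 4 of 14603 unchanged rows. The simulation gave every row the same coefficient of variation, 15.2%, and no library effects beyond depth. Rows and libraries of the data vary more unevenly, so these shares do not give the power or the false calls of the real tests. Alternatives were other scalings, DESeq2 1.42.0, no filter, a replicate block, fits to the compared groups, each library left out, and other member rules. Members named are the 12 highest, the 8 (E2 contrasts: 4) smallest p per direction without overlap, the role lists, and those called at all 3 times of the siRNA contrast. Members and lists were chosen with earlier results of these data known. ZNF407-AS1, MAGI2-AS3, PCAT1, SPEN-AS1 and AL590004.3 lie outside the naming rule and were named after their values were seen.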

Additional observations from a re-analysis of the deposited data

How the results depend on the processing

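Under another scaling (relative log expression or upper quartile) the counts of members called stayed within 1.5 times. Without the filter on low counts they were 47 for the p53 siRNA at 0 h, 13 and 31 for E2 at 2 and 8 h in siControl, 6 and 24 in sip53, 4 and 2 for the differences of response at 2 and 8 h, and 21 for members called at all 3 times of the siRNA contrast. Fits to the compared groups alone gave 14 at 0 h and 53 at 2 h of the siRNA contrast, and 4 in siControl and 7 in sip53 for E2 at 8 h. DESeq2 gave 3 for E2 at 2 h in siControl. Members without exon overlap gave 10, 13 and 12 at 0, 2 and 8 h. The member rule gave 646 at a mean CPM of 2 and 171 at 10. The cause of these shifts was not tested, apart from the overlap and member rules, which change the rows counted. Leaving out 1 library gave 7 to 48, 11 to 39 and 7 to 25 for the siRNA contrast at 0, 2 and 8 h, 1 to 10 for all 3 times, 0 to 5 and 5 to 28 for E2 at 2 and 8 h in siControl, and 3 to 10 for E2 at 8 h in sip53. For named members, 0 of 996 alternative values of 83 calls reversed, and 228 were no longer past the threshold. The 83 calls had passed the threshold on these same libraries, so a reversal was unlikely from the start and its absence is no support for them.

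With the replicate number as a block, the siRNA contrast had 31, 29 and 29 members called at 0, 2 and 8 h, and E2 at 8 h 9 and 12. Deviations of same-numbered libraries had a mean correlation of -0.004 (45 pairs, 11 over 0.1) and those of other pairs 0.002. Deviations cancel out within a group, so the 2 means are tied and cannot decide whether particular libraries belong together. Replicate 1 of siControl at 0 h and at 2 h correlated at 0.39, as did sip53 0 h replicate 1 with sip53 8 h replicate 2. The block moved no count by over 1.5 times. Of the members, 160 lay under 10 CPM, which limits the precision of their fold changes.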

Other observations

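A further 29 rows at or above 5 CPM were named as lncRNA genes by a majority of their transcripts, with the rest from another gene, and so were no members. They include well-known host genes, and their counts can hold reads of the second gene. The p53 siRNA contrast called 13.8%, 17.2% and 10.3% of the 29 at 0, 2 and 8 h, beside 9.12%, 12.2% and 8.96% of all rows. PVT1 was lower at 0 and 2 h, SNHG20 at 0 h and MIR22HG at 2 h. AL137058.2, named after its values were seen, was lower at all 3 times. SNHG7 was higher at 0 and 8 h and SNHG11 at 2 h. Each of these calls was lost in some of the fits without 1 library. NEAT1, the scaffold of paraspeckles, stood at 2182, 3985 and 3024 CPM in siControl at 0 h and 2116, 2641 and 2092 CPM in sip53 and was not called (log2 -0.42 ± 0.18, adjusted p = 0.145, edgeR's quasi-likelihood test). MIR205HG, the host of the epithelial microRNA miR-205, stood at 173, 196 and 177 CPM in sip53 at 0 h, 389, 344 and 369.8 at 2 h and 333, 298 and 429.8 at 8 h of E2. It rose by 1.01 ± 0.12 at 2 h (adjusted p = 2.18e-05) and 0.96 ± 0.12 at 8 h (2.40e-05), calls kept in each of the 6 fits without 1 library. In siControl it stood at 164, 191 and 188, 251, 285 and 313 and 263, 249 and 294 CPM at 0, 2 and 8 h. There the log2 fold change was 0.64 ± 0.12 at 2 h (0.0145, lost without siControl 0 h replicate 3 (0.0512), siControl 2 h replicate 2 (0.108) or siControl 2 h replicate 3 (0.159)) and 0.57 ± 0.12 at 8 h (0.00928, lost without siControl 8 h replicate 3 (0.0672)). The difference between the arms was 0.37 ± 0.17 at 2 h and 0.39 ± 0.17 at 8 h, and neither was called (adjusted p = 1 and 0.999).

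MIR503HG, a microRNA host on the X chromosome, stood at 17.1, 27.1 and 22.4 CPM in siControl at 0 h, 7.95, 14.7 and 15 at 2 h and 46.4, 36 and 48.5 at 8 h of E2. In sip53 it stood at 14.6, 29.1 and 23.1, 17, 13.8 and 14 and 41.7, 32.5 and 61.8 CPM. The 8 h libraries lay above all others of their arm (log2 against 0 h 0.98 ± 0.25 in siControl, adjusted p = 0.0338, lost without siControl 0 h replicate 1 (0.0805), siControl 0 h replicate 3 (0.0917), siControl 8 h replicate 1 (0.0992) or siControl 8 h replicate 3 (0.117); 1.03 ± 0.25 in sip53, 0.0217, lost without sip53 0 h replicate 1 (0.124), sip53 0 h replicate 3 (0.0689) or sip53 8 h replicate 3 (0.194)).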
